A study of Homo sapiens with 4 samples.

Results

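Flank peaks are RNA polymerase II (Pol II) peaks that sit outside a gene but next to it. They were taken from the 2 deposited ChIP-seq peak lists of U2OS cells, on chromosomes 1 to 22 and X. A peak was a member when its summit, the base of highest read density, lay more than 1000 and at most 5000 bp outside an end of a RefSeq protein-coding gene, inside no such gene and over 1000 bp from the ends of all others. The rule used positions alone and no measured height. It found 1610 of the 26387 NKAP knockdown peaks and 2675 of the 36345 control peaks, 4285 of 62732 peaks in all.

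U2OS is a human osteosarcoma cell line, and the labels list 1 Pol II ChIP library and 1 input library for each of 2 groups. The knockdown cells were transfected for 48 h with an siRNA against NKAP, a nuclear protein known for binding RNA and splicing proteins and as a repressor of Notch target genes. The control cells were transfected for 48 h with the siRNA that the design text names NC. Both groups were fixed with 1% formaldehyde for 10 min. An siRNA lowers a transcript and leaves the gene in place, and these files hold no measure of NKAP RNA. The NKAP gene (chrX:119920672-119943751) had 1 peak within 1000 bp of an end in the knockdown list, with a fold of 6.90, and 1 in the control list, with a fold of 6.07. It had no flank peak in either list. With 1 ChIP library in each group, no difference below has a replicate check and no test between conditions was made. Intervals on shares are 95% Wilson intervals and cover counting error only.

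Pol II does not stop at the annotated 3′ end of a gene. It runs on past the cleavage and polyadenylation site while the nascent RNA behind it is degraded, and is then released, so signal is usual downstream of expressed genes. Upstream flanks hold other elements: start sites of long noncoding RNAs (lncRNAs), many of them transcribed away from the gene's own promoter, and enhancers that recruit Pol II. Some host transcripts of small nucleolar RNAs and microRNAs also have promoters of their own between protein-coding genes.

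Most of the strongest flank peaks lay in annotated noncoding genes. Among the 10 flank peaks of highest fold in each list, the summit lay inside an annotated noncoding gene in 9 of the knockdown peaks and 7 of the control peaks. The promoters below are those of 4 lncRNAs whose promoter window held a flank summit of at least one list, shown as strong members that differ in their letters. Each runs 5′ to 3′ along the transcript, 250 bp before to 50 bp after an annotated start (RefSeq, GRCh38.p14). Capitals mark GGGCGG, the core of the GC box bound by Sp1 family factors, and CCAAT, the CCAAT box, on either strand.
SNHG12: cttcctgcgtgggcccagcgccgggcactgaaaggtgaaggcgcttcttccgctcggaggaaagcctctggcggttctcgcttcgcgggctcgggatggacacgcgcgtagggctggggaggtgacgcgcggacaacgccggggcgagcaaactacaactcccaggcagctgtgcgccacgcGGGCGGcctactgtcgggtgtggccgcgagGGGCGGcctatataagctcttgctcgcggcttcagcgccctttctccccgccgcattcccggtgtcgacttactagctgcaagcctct
SNHG8: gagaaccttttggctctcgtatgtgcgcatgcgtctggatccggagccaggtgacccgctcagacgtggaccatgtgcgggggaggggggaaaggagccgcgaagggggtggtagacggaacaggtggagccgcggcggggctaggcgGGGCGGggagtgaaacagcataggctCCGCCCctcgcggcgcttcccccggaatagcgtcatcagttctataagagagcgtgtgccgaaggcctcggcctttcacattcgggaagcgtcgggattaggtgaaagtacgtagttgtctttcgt
LINC00471: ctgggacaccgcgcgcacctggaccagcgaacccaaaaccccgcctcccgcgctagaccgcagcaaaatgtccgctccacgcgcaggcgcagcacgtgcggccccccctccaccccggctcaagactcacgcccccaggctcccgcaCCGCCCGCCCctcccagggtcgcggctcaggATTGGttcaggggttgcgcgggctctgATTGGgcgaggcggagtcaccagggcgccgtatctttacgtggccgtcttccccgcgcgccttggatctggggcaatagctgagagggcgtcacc
LOC105370449: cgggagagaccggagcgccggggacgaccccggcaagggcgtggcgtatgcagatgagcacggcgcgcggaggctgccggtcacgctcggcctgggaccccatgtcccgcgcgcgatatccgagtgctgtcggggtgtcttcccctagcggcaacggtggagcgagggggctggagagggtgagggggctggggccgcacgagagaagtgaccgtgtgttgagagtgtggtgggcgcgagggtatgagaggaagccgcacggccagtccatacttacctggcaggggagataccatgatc

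SNHG12 (chr1:28581824-28582123, minus strand) and SNHG8 (chr4:118278512-118278811, plus strand) are host transcripts of small nucleolar RNAs. LINC00471 (chr2:231514328-231514627, minus strand) is a lncRNA beside NMUR1, and LOC105370449 (chr14:34556359-34556658, minus strand) a lncRNA beside SNX6. The summit beside SNX6 also lay inside the U1 pseudogene RNU1-28P in both lists, so that window need not serve the lncRNA alone. SNHG12 held 2 copies of GGGCGG, at bases 183 to 188 and 213 to 218 counted from the 5′ end. SNHG8 held 2, at bases 149 to 154 and, on the other strand, 175 to 180. LINC00471 held 2 overlapping copies at bases 148 to 153 and 152 to 157, and 2 copies of CCAAT at bases 179 to 183 and 206 to 210, all on the other strand. LOC105370449 held neither motif. The summits lay at the 3′ end of these windows in the case of SNHG12, at base 289 in the knockdown list and base 278 in the control list. Of all 35116 promoter windows of this length in the reference, 45.0% held GGGCGG and 34.6% held CCAAT, so a match is a description of these letters and no more.

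Promoters of flank lncRNAs with a peak differed in base content from those without one. The reference held 557 distinct lncRNA starts, of 517 genes, in flank positions. A peak of the knockdown list covered 74 of them (13.3%, 10.7 to 16.4), and a peak of the control list 102 (18.3%, 15.3 to 21.7). Both lists covered 67, the knockdown list alone 7 and the control list alone 35. The 67 windows covered in both lists had a median of 23 CpG dinucleotides (quartiles 15 and 31), against 15 for the 7 covered in the knockdown list alone, 12 for the 35 covered in the control list alone and 4 for the 448 covered in neither (quartiles 2 and 11). GGGCGG stood in 65.7% of the windows covered in both lists and in 20.3% of those covered in neither. TATAAA, the core of the TATA box, stood in 4.48% and 12.3%, against 11.5% of all promoter windows. The 35 windows covered in the control list alone held GGGCGG in 37.1% and TATAAA in 17.1% of cases. In the 7 covered in the knockdown list alone these were 42.9% and 0%. For TATAAA the windows with a peak thus lay on both sides of those without one. These windows were grouped by the peaks themselves, so the shares carry no test.

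Some hairpins of microRNAs lay under flank peaks. Of the 1558 hairpins in the reference, 8 were covered by a knockdown flank peak and 11 by a control flank peak, 7 of them in both lists. The mature sequences below (RefSeq, GRCh38.p14) belong to 4 of these 7, shown because let-7i lay under the strongest of those peaks and miR-132 and miR-212 share a seed. Capitals mark the seed (bases 2 to 8), which pairs with target transcripts.
hsa-let-7i-5p: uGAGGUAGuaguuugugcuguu
hsa-miR-210-3p: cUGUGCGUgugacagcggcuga
hsa-miR-132-3p: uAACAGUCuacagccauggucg
hsa-miR-212-3p: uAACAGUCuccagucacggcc

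The let-7i hairpin lay under a peak beside MON2 with a fold of 18.5 and 79 reads at the summit in the knockdown list, and a fold of 54.6 and 116 reads in the control list. The miR-210 hairpin, known as a hypoxia-induced microRNA, lay under a peak of fold 13.8 in the knockdown list and 12.6 in the control list. The miR-132 and miR-212 hairpins, which share the seed AACAGUC, lay under the same peak beside HIC1, of fold 9.84 in the knockdown list and 7.02 in the control list. MIR3178, MIR4710 and MIR4734 made up the rest of the 7. The hairpins of the miR-23a, miR-27a and miR-24-2 cluster beside ZSWIM4 lay under a control flank peak of fold 4.01 with 11 reads and under no knockdown peak. MIR3677 likewise lay in part under a control peak alone, of fold 5.67. MIR92B lay under a knockdown flank peak of fold 17.9 whose overlapping control peak had its summit in another class.

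**Figure D1:**
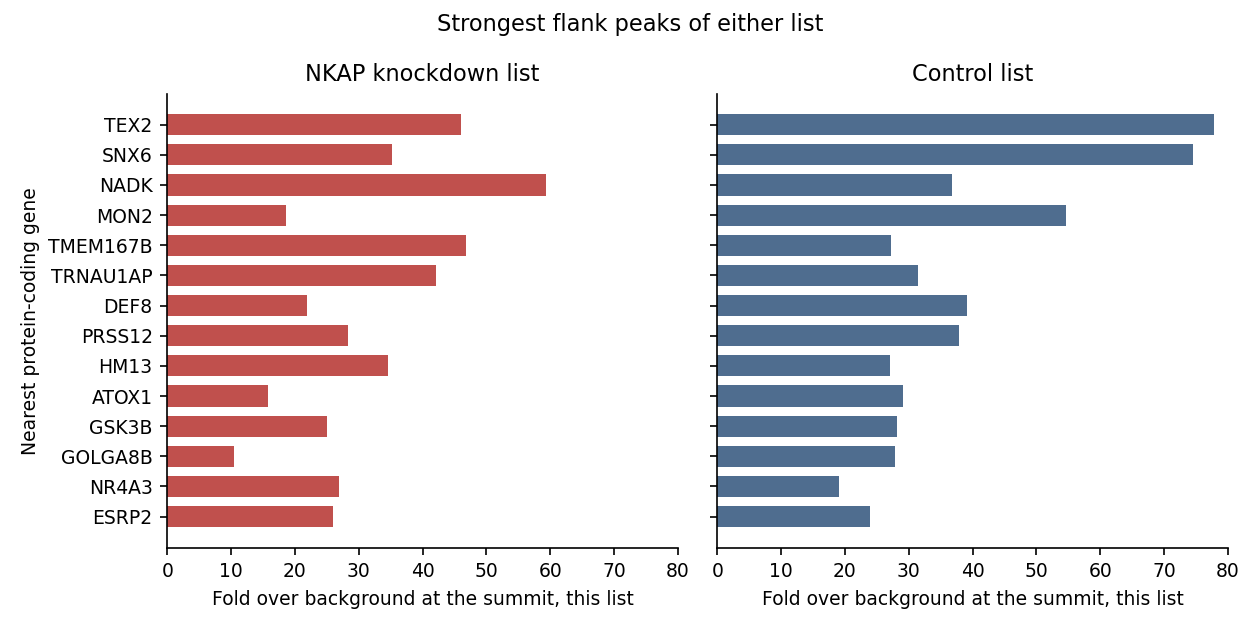
Fold over background at the summit (x axis) of the 14 flank peaks that were among the 10 of highest fold in either list, by nearest protein-coding gene, in the knockdown list (left) and the control list (right). Every one of the 14 had an overlapping peak in the other list; TEX2 was highest in the control list at 77.8 and NADK in the knockdown list at 59.3.

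The strongest flank peaks were found in both lists, in a different order. The fold is each list's own value from the authors' peak caller, so the values of the 2 lists are given side by side and not compared. The peak past NADK, which encodes NAD kinase, had the highest fold of the knockdown list, 59.3 with 120 reads at the summit (chr1:1745270-1747474), inside the lncRNA LOC112268218. In the control list it had a fold of 36.8 and 109 reads. The peak past TEX2, on SNHG25, the host of the small nucleolar RNA SNORD104, had a fold of 46.0 with 148 reads in the knockdown list, against 77.8 with 208 reads in the control list, where it was the highest (chr17:64144583-64149796). The peak past SNX6, a sorting nexin, on LOC105370449 and the U1 pseudogene RNU1-28P, had a fold of 35.2 with 113 reads in the knockdown list and 74.5 with 172 reads in the control list. Short RNA genes with many near-identical copies, such as U1, can share reads, so that peak's height is uncertain.

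The peak past TMEM167B on SCARNA2, a small Cajal body RNA, had a fold of 46.8 in the knockdown list and 27.3 in the control list. The peak on SNHG12 past TRNAU1AP was 5906 bp wide with a fold of 42.1 in the knockdown list, and 7095 bp wide with a fold of 31.4 in the control list. On SNHG8, beside PRSS12, the fold was 28.3 in the knockdown list and 37.8 in the control list. Beside HM13, which encodes signal peptide peptidase, the peak near the start of LOC107985416 had a fold of 34.6 in the knockdown list and 27.0 in the control list. GSK3B-DT, transcribed divergently from the kinase gene GSK3B, carried a fold of 25.02 in the knockdown list and 28.2 in the control list. The let-7i host beside MON2 was among the 10 highest of the control list, while its knockdown fold of 18.5 was outside that list's 10 highest. The transcribed pseudogene AFG3L1P beside DEF8 had a fold of 21.9 in the knockdown list and 39.2 in the control list. The lncRNA loci that completed the strongest noncoding ones were LOC124904013 upstream of LSM10 (24.9 in the knockdown list, 15.05 in the control list) and OIP5-AS1 downstream of CHP1 (14.7 in the knockdown list, 26.6 in the control list).

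The remaining strong peaks had no lncRNA start held in the promoter reference within 1000 bp of the summit. The same held for those beside TMEM167B, TEX2, DEF8 and LSM10 above. A noncoding gene absent from that reference, as SNHG25 at TEX2 may be, has no start here, so a nearby start could be missed. The peak upstream of NR4A3, an orphan nuclear receptor induced by many stimuli, lay in LOC101928438 and had a fold of 26.9 in the knockdown list and 19.1 in the control list. The one beside ESRP2, an epithelial splicing regulator, had a fold of 26.0 in the knockdown list and 23.9 in the control list. The one past ATOX1, a copper chaperone, had a fold of 15.8 in the knockdown list and 29.1 in the control list. GOLGA8B had a fold of 10.4 in the knockdown list and 27.9 in the control list. It belongs to a multicopy family on chromosome 15, so reads there may be split between copies.

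Flank peaks were weaker and narrower than gene-end peaks, and close to the peaks inside genes and to those over 5000 bp outside them. Their median fold was 6.41 in the knockdown list (quartiles 5.42 and 7.91) and 5.74 in the control list (4.91 and 7.10), while gene-end peaks, whose summits lay at most 1000 bp from an end of a gene, had medians of 9.84 in the knockdown list and 10.98 in the control list. Their median width was 447 bp in the knockdown list and 482 bp in the control list, against 950 bp for gene-end peaks of the knockdown list and 1214 bp for those of the control list. Gene-interior peaks had median folds of 6.57 in the knockdown list and 5.90 in the control list, and median widths of 497 bp in the knockdown list and 499 bp in the control list. Peaks over 5000 bp outside genes had median folds of 6.73 in the knockdown list and 6.35 in the control list, and median widths of 517 bp in the knockdown list and 582 bp in the control list. The reads at the summit, recovered from the fold and p-value of each peak, had a median of 16 in the knockdown flank peaks (9 to 148) and 15 in the control flank peaks (8 to 208). In the knockdown list 71.2% of flank peaks were weaker than the median peak of the list by p-value, and in the control list 70.2% did. A fold over 10 was reached by 210 knockdown and 256 control flank peaks.

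Flank peaks made up 6.10% of the knockdown peaks (5.82 to 6.40) and 7.36% of the control peaks (7.10 to 7.63), a knockdown-minus-control difference of -1.26 percentage points (-1.65 to -0.862). That direction depended on the lengths of the lists. With the control list limited to its strongest peaks, as many as the knockdown list held, the shares were 6.10% in the knockdown list and 6.03% in the control list, a difference of 0.0682 points (-0.339 to 0.476). Among the strongest 10000 peaks of each list they were 2.95% in the knockdown list and 2.57% in the control list, a difference of 0.38 points (-0.0747 to 0.836).

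Per length of sequence, flanks lay between gene ends and open intergenic sequence. The 28715 flank windows spanned 98.1 Mb and held 16.4 knockdown and 27.3 control summits per Mb. The first 1000 bp outside genes held 118 knockdown and 130 control summits per Mb, and sequence over 5000 and up to 50000 bp outside genes held 6.47 knockdown and 8.57 control summits per Mb. The knockdown list held 0.602 times as many flank summits as the control list, against 0.726 times as many summits over all peaks. With equal numbers of strongest peaks the flank ratio was 1.01.

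**Figure D2:**
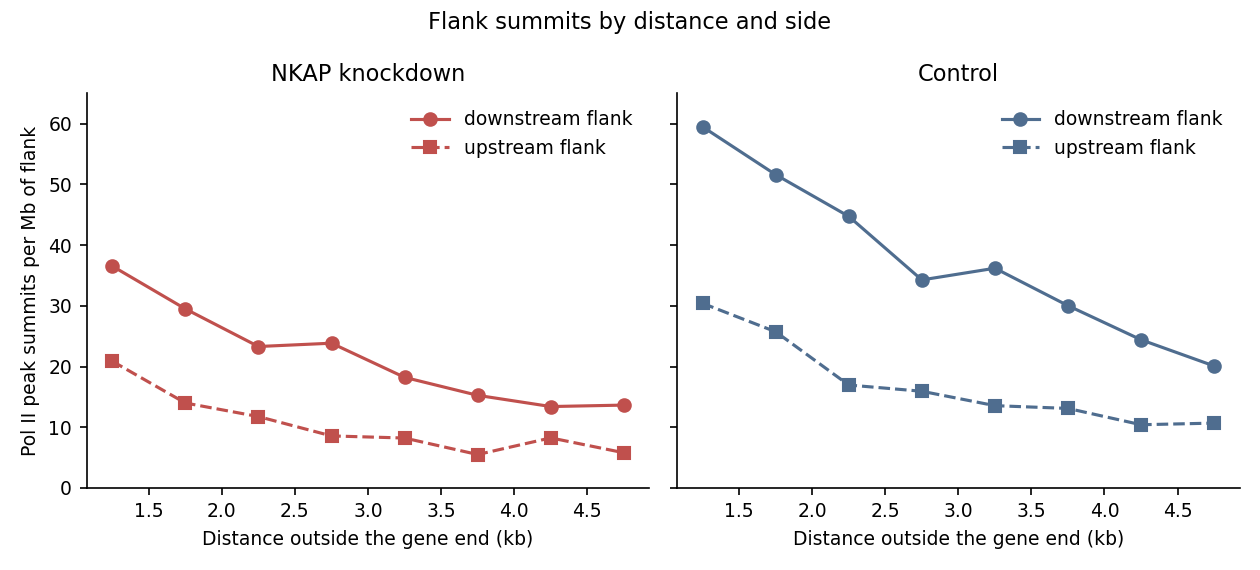
Pol II peak summits per Mb of flank sequence (y axis) by distance outside the gene end in kb (x axis, 500-bp bins), downstream and upstream of genes, for the knockdown list (left) and the control list (right). Downstream flanks lie above upstream flanks in every bin of both lists, and both thin out with distance.

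Downstream flanks carried more peaks than upstream flanks in both lists. Strand was known for 15812 of the 19974 protein-coding genes, which gave a side to 1261 knockdown and 2145 control members. Of these, 836 knockdown summits (66.3%, 63.6 to 68.9) and 1446 control summits (67.4%, 65.4 to 69.4) lay downstream, past the 3′ end. Per Mb, downstream flanks held 22.5 knockdown and 38.8 control summits, and upstream flanks 10.7 knockdown and 17.5 control summits. In the 500 bp nearest the gene-end window past the 3′ end there were 36.6 knockdown and 59.5 control summits per Mb. From 4501 to 5000 bp there were 13.6 knockdown and 20.1 control summits per Mb. The ratio of knockdown to control summit counts was 0.578 downstream and 0.608 upstream, and the downstream share differed by -1.12 points between knockdown and control (-4.41 to 2.14), an interval that includes 0.

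Density by the kind of gap between neighbouring genes repeated the contrast of sides. Convergent gaps hold only downstream flanks and divergent gaps only upstream ones. The gaps also differed in length, with a median for control members of 11834 bp in convergent and 39711 bp in divergent gaps. Gaps between the 3′ ends of convergent genes held 20.5 knockdown and 36.7 control flank summits per Mb. Gaps between tandem genes held 16.7 knockdown and 28.1 control summits per Mb. Gaps between divergent genes held 146 knockdown summits (9.73 per Mb) and 225 control summits over the same length. The share of members found in the other list was much the same in each kind, from 73.9% to 76.0% of knockdown peaks and from 35.5% to 38.2% of control peaks.

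Members on either side lay more often beside genes with a peak at their other end than genes did over all. Of the 836 knockdown peaks past a 3′ end, 82.5% (79.8 to 85.0) belonged to a gene with a knockdown peak within 1000 bp of its start, and of the 1446 control ones 86.5% (84.7 to 88.2) to a gene with such a control peak. Over all genes of known strand, 56.5% had a peak at the start in the knockdown list and 59.5% in the control list. Of the upstream members, 25.4% of knockdown ones (21.5 to 29.8) and 32.2% of control ones (28.8 to 35.7) belonged to a gene with a peak within 1000 bp of its 3′ end, against 12.3% of all genes of known strand in the knockdown list and 17.6% in the control list.

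Most members were separate from the gene end they lay beside. The peak interval reached the 1000-bp window at a gene end in 16.3% of knockdown and 15.8% of control members. A separate peak lay at that gene end for 37.6% of knockdown and 47.2% of control members. For 46.1% of knockdown and 37.0% of control members that gene end had no peak at all. Past 3′ ends the last group was larger, 56.6% of knockdown and 46.6% of control members.

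Far more knockdown flank peaks had a control partner than the reverse. Of the 1610 knockdown flank peaks, 1204 (74.8%, 72.6 to 76.8) were overlapped by at least 1 bp of a control peak, against 82.8% of all knockdown peaks. Of the 2675 control flank peaks, 980 (36.6%, 34.8 to 38.5) were overlapped by a knockdown peak, against 54.2% of all control peaks. The 406 knockdown flank peaks without a partner compare with 17.2% of all knockdown peaks lacking one, and the 1695 control flank peaks with 45.8% of all control peaks. The control list is longer, and each share moved with that length: with equal numbers of peaks 66.0% of knockdown and 50.6% of control flank peaks had a partner, and among the strongest 10000 peaks of each list 70.5% of knockdown and 71.6% of control ones did.

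**Figure D3:**
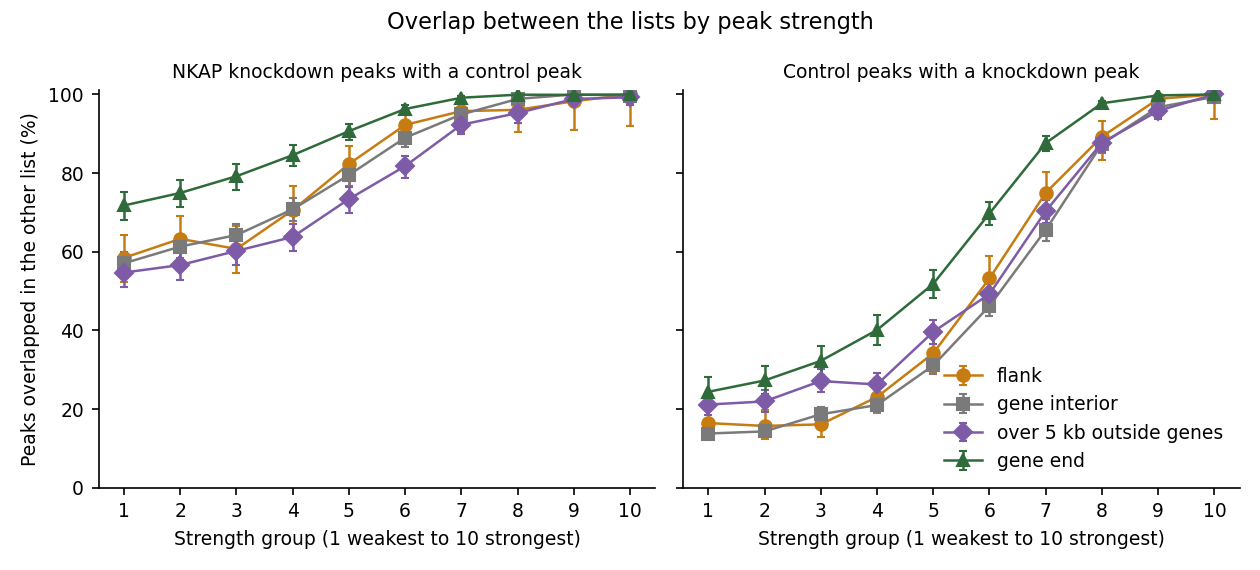
Share of peaks overlapped in the other list (y axis, %, with 95% Wilson intervals) by strength group within the list (x axis, 10 equal groups by p-value), for flank, gene-interior and gene-end peaks and peaks over 5 kb outside genes, in the knockdown list (left) and the control list (right). In the weakest group 58.5% of knockdown and 16.5% of control flank peaks had a partner, and in the strongest group all 44 knockdown and all 58 control flank peaks did.

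Overlap followed strength in both lists. In the strongest of 10 equal groups of each list, all 44 knockdown and all 58 control flank peaks had a partner, and in the weakest group 58.5% of 260 knockdown and 16.5% of 407 control flank peaks did. Weighted to the strength of flank peaks, gene-end peaks had a partner in 85.1% of knockdown and 49.7% of control cases, so flank peaks stood 10.3 points lower in the knockdown list and 13.04 points lower in the control list. Against gene-interior peaks so weighted, the flank shares were higher by 0.437 points in the knockdown list and 2.56 points in the control list. Against peaks over 5000 bp outside genes, flank shares were higher by 4.87 points in the knockdown list, while in the control list the flank share minus the weighted one was -3.39 points. Members without a partner had a median of 13 reads at the summit in both lists and median widths of 311 bp in the knockdown list and 379 bp in the control list. Of the 406 knockdown members without a partner, 66.3% lay within 5 kb of a control peak. Of the 1695 control members without a partner, 66.2% lay within 5 kb of a knockdown peak.

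The members found in the knockdown list alone reached a fold of 11.5, far below the strongest of that list. The highest lay upstream of ANO1, a calcium-activated chloride channel, with a fold of 11.5 and 24 reads (chr11:69962079-69962717), and the nearest control peak was 5605 bp away. The next lay upstream of TMBIM6 and of LOC400499, with folds of 11.5 and 11.4, the nearest control peaks being 685 bp and 32047 bp away. The peak downstream of NRARP, a Notch-induced inhibitor of Notch signalling, had a fold of 10.8 with 26 reads and no control peak within 16617 bp. DYRK3, a kinase that dissolves stress granules, had a fold of 10.8, but a control peak lay 118 bp away. The other peaks of the highest 10 lay beside KYNU (10.3), DUSP5 (9.42), ZNF554 (9.35), CETP (9.23) and HSPA6 (8.71). HSPA6 has a close copy nearby, which leaves its reads uncertain.

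Of the 10 strongest members found in the control list alone, 5 had no knockdown peak within 19113 bp. The peak beside TMEM45B had a fold of 16.8 with 35 reads (chr11:129861379-129862951) and no knockdown peak within 32247 bp. Upstream of SLC2A2, the glucose transporter GLUT2, the fold was 13.1 with 27 reads and the nearest knockdown peak was 118339 bp away. Upstream of ECT2, a guanine nucleotide exchange factor needed for cytokinesis, the fold was 12.6, and a knockdown peak lay 202 bp away. CDV3 (12.4), the carnitine transporter SLC22A5 (12.4), CNTF (12.1), SLC7A10 (11.7), EPO (11.4), IER5 (11.3) and TMEM200C (11.3) made up the other control peaks. CNTF, SLC7A10 and EPO, the last of them encoding erythropoietin, had no knockdown peak within 47510 bp, 31459 bp and 19113 bp.

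Annotation separated the members more clearly than side did. The summit lay inside an annotated noncoding gene for 22.05% of knockdown members (20.1 to 24.1) and 21.6% of control members (20.1 to 23.2), a difference of 0.442 points (-2.09 to 3.03). Within 1000 bp of a lncRNA start held in the promoter reference lay 108 knockdown members (6.71%) and 121 control members (4.52%). Of these, 85.2% of knockdown (77.3 to 90.7) and 64.5% of control peaks (55.6 to 72.4) had a partner. Of members in a noncoding gene but away from such a start, 74.0% of knockdown and 34.3% of control peaks did. Of members on no annotated gene, 74.0% of knockdown and 35.6% of control peaks did. Peaks near lncRNA starts were also wider, with median widths of 735 bp in the knockdown list and 718 bp in the control list, and 33.3% of the knockdown and 33.1% of the control ones had a fold over 10.

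**Figure D4:**
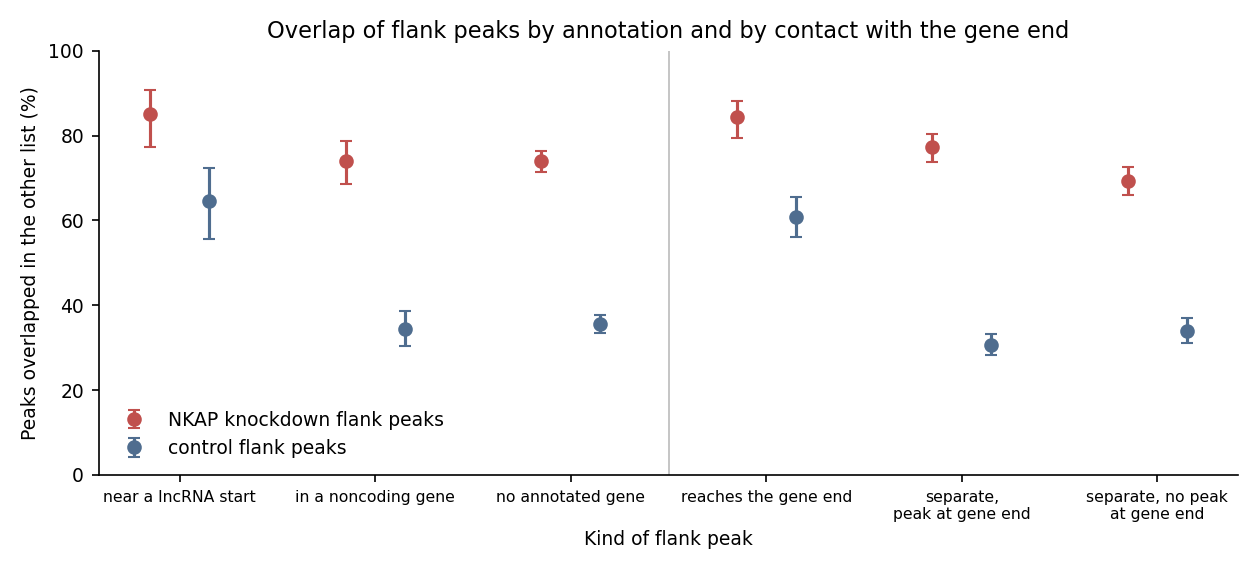
Share of flank peaks overlapped in the other list (y axis, %, with 95% Wilson intervals) by annotation (left of the line) and by contact with the gene end (right of the line), knockdown members left of control members in each pair. Control members near a lncRNA start (64.5%) and those that reach the gene end (60.9%) stand apart from the other control groups, which lie between 30.7% and 35.6%.

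Overlap also varied with contact with the gene end, though not alike on both sides. Members that reached the gene-end window had a partner in 84.4% of knockdown and 60.9% of control cases. Separate members beside a gene end with a peak had one in 77.2% of knockdown and 30.7% of control cases, and separate members with no peak at the gene end in 69.4% of knockdown and 33.9% of control cases. Upstream, control members with no peak at the gene end had a partner in 57.9% of cases (48.5 to 66.9) and those that reached it in 48 of 96 cases (40.2% to 59.8%), while downstream these shares were 28.6% and 62.5%. Upstream knockdown members had one in 72.5% of cases with no peak at the gene end and 77.3% of cases that reached it. The reaching peaks were wider, with medians of 821 bp in the knockdown list and 1114 bp in the control list.

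Counted by gene, 1273 of 19974 protein-coding genes (6.37%) had a flank summit in the knockdown list and 1917 (9.60%) in the control list. Both lists had one at 886 genes (4.44%), the knockdown list alone at 387 (1.94%) and the control list alone at 1031 (5.16%). With equal numbers of strongest peaks these were 753 genes in both lists, 520 in the knockdown list alone and 554 in the control list alone. A summit missing from a list does not mean that the flank was bare: at 189 of the 387 knockdown-only genes (48.8%) a control peak still covered part of the flank, and at 191 of the 1031 control-only genes (18.5%) a knockdown peak did. Peaks of any class covered 1.45 Mb of flank sequence in the knockdown list (1.48%) and 2.83 Mb in the control list (2.89%), a ratio of 0.513. That came from 2639 knockdown peaks covering a mean of 551 bp each and 4635 control peaks covering 611 bp each. Of the 3710 genes with any covered flank, 2928 had less covered length in the knockdown list, 667 had more and 115 had the same. The lists differ in length, and over all peaks the covered length in the knockdown list was 0.619 times that in the control list. With equal numbers of strongest peaks the flank ratio was 0.609. The ratio over all peaks was not computed at equal numbers, so 0.609 has no matching value to be read against.

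**Figure D5:**
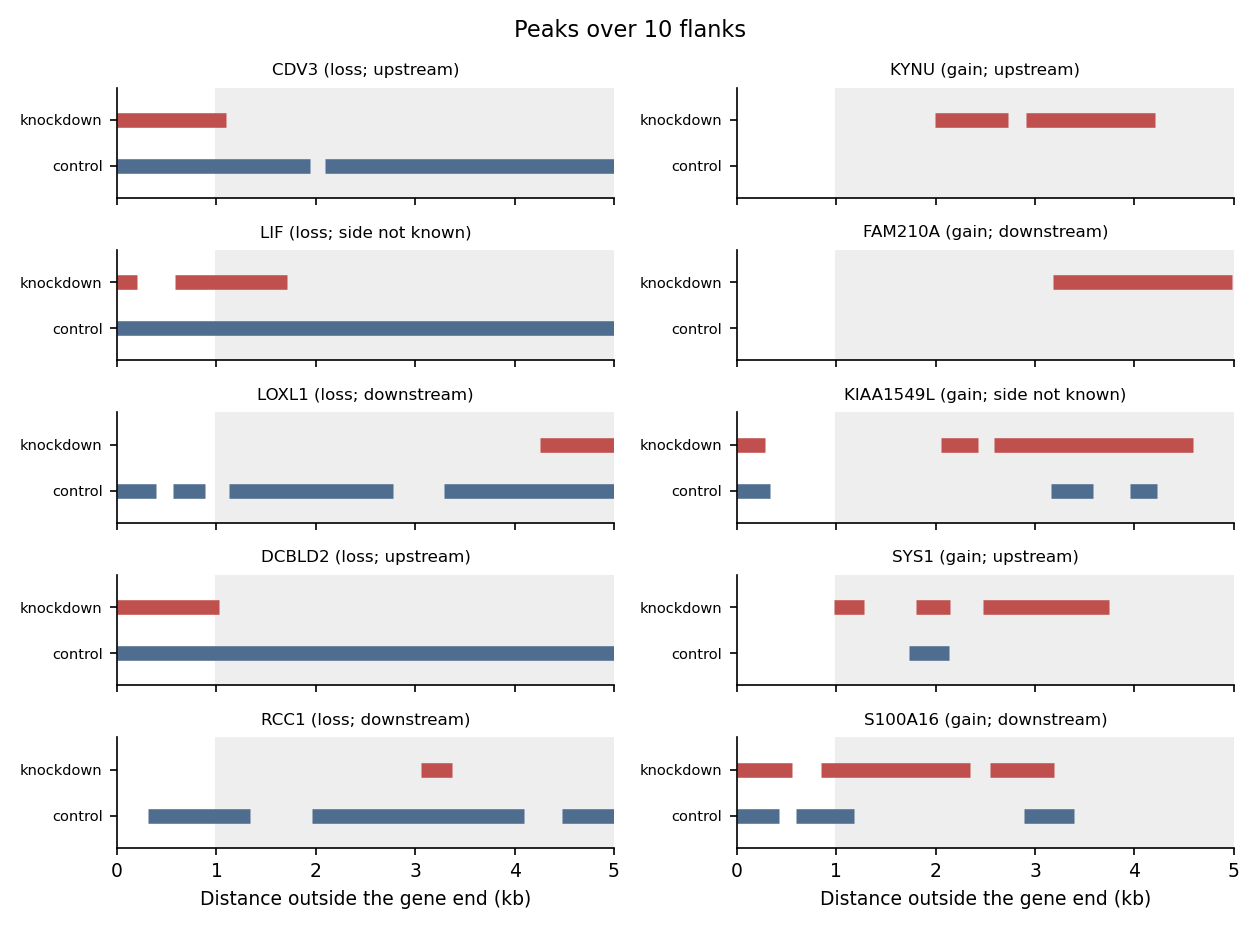
Peaks of any class (bars) by distance outside the gene end in kb (x axis; grey marks the flank), knockdown above control, for the 5 genes with the largest deficit (left) and the 5 with the largest surplus (right) of covered flank length in the knockdown list. For each gene the side that differed most is drawn. At LIF and DCBLD2 a control peak spans the whole flank, and at KYNU and FAM210A the control flank is empty.

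The largest deficits of covered length were knockdown-minus-control differences of -5048 to -3942 bp. At CDV3, peaks covered 564 bp of the 7982 bp of flank in the knockdown list, against 5612 bp in the control list. At LIF, which encodes the cytokine leukaemia inhibitory factor, they covered 3824 bp in the knockdown list and all 8000 bp in the control list. At LOXL1, a lysyl oxidase that crosslinks elastin, they covered 740 bp in the knockdown list and 4815 bp in the control list. At DCBLD2 the knockdown list covered 29 bp and the control list 4000 bp, all of it by a single control peak of fold 45.1 whose summit was no member. At RCC1, the nucleotide exchange factor of Ran, the knockdown list covered 599 bp and the control list 4541 bp.

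The largest surpluses were smaller. At KYNU, which encodes kynureninase of tryptophan breakdown, knockdown peaks covered 2032 bp and control peaks 0 bp. At FAM210A they covered 1800 bp in the knockdown list and 0 bp in the control list, by 1 wide peak of fold 4.42. KIAA1549L had 2373 bp covered in the knockdown list and 687 bp in the control list, SYS1 1886 bp in the knockdown list and 399 bp in the control list, and S100A16 2000 bp in the knockdown list and 682 bp in the control list.

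The genes with the most flank summits, counted over both lists together, had 8 to 10. INTS1, a scaffold subunit of the Integrator complex, which ends snRNA and other short transcripts, had 6 knockdown and 4 control summits. Its covered flank length was 3970 bp in the knockdown list and 4723 bp in the control list. BCL2L1, the inhibitor of apoptosis BCL-XL, had 4 knockdown and 5 control summits. TINAGL1 had 3 knockdown and 6 control summits, RHOU 3 knockdown and 5 control summits, and the phosphate transporter SLC20A1 4 in each list.

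Lists of genes with a known function were counted next, 434 of their 435 entries being matched. Shares are read against 6.37% of all genes with a knockdown flank summit and 9.60% with a control one, and no list was tested. A summit found in the knockdown or control list alone does not mean that the other list left the flank bare. Immediate early genes, transcription factors, phosphatases and other genes induced early by a stimulus, had 12 knockdown and 10 control genes of 32. MCL1 had a fold of 8.12 in the knockdown list and 13.96 in the control list, FOS 11.2 in the knockdown list and 6.89 in the control list, and SOCS3 10.0 in the knockdown list and 9.63 in the control list. DUSP5, JUND, FOSL2, KLF10 and KLF2 had a summit in the knockdown list alone, and IER5, IER2 and TRIB1 in the control list alone. At JUND, FOSL2 and KLF2 control peaks still covered the flank, by 2474, 6407 and 2613 bp, from peaks whose summits do not count to these flanks. At IER5, 4 control summits stood against none in the knockdown list.

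Genes of RNA processing came next. Splicing factors had 9 knockdown and 13 control genes of 26, all 9 of the knockdown genes also being among the control ones. HNRNPK had 3 knockdown summits with a highest fold of 11.1 and 1 control summit of fold 8.53. Peaks covered 3024 bp of its flank in the knockdown list and 4000 bp in the control list. SNRPB, a core spliceosomal protein, had a fold of 6.13 in the knockdown list and 10.6 in the control list. SRSF3 and TRA2B, which bind splicing enhancers, had folds of 9.29 and 8.86 in the knockdown list, against 9.03 and 8.36 in the control list. TRA2A, SRSF5, HNRNPU and SRSF7 had control summits alone. The 24 factors of 3′ end processing and termination had 4 knockdown and 6 control genes. XRN2, the exonuclease that degrades RNA behind terminating Pol II, had 1 summit in each list, of fold 7.44 in the knockdown list and 7.18 in the control list. RBBP6, CSTF1 and PCF11 had summits in the control list alone and CSTF3 in the knockdown list alone.

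Translation genes showed both patterns. Cytosolic ribosomal protein genes had 11 knockdown and 13 control genes of 39, of which 7 were shared. RPSA had a fold of 9.59 in the knockdown list and 15.04 in the control list, and RPL6 10.1 in the knockdown list and 6.86 in the control list. RPLP1, RPL19, RPS19 and RPL27 had a knockdown summit alone. Control peaks still covered 2739, 1271, 1177 and 912 bp of those flanks, against 868, 480, 384 and 1054 bp in the knockdown list. Those with a control summit alone included RPL11, RPL10, RPS12, RPS24 and RPLP2. At RPL10, RPS12 and RPLP2 knockdown peaks covered 241, 3793 and 438 bp, against 864, 4335 and 1529 bp in the control list. Many ribosomal protein genes have processed copies elsewhere, which can take reads. Translation factors had 5 knockdown and 7 control genes of 16. EEF1G had a fold of 11.1 in the knockdown list and 13.04 in the control list, and EIF4G2 7.91 in the knockdown list and 13.5 in the control list. EIF1 had 2 knockdown summits alone, and EEF1A1, EIF4B and EEF2 control summits alone. Peaks of both lists covered part of each of these flanks. The covered lengths at EIF1, EEF1A1, EIF4B and EEF2 were 2557, 4356, 1388 and 497 bp in the knockdown list. In the control list they were 2936, 4450, 1460 and 1264 bp. Replication-dependent histone genes, which stand in clusters, had 5 knockdown and 7 control genes of 28, with H2AC6 at 1 knockdown and 4 control summits. Replication-independent histone genes had 2 knockdown and 2 control genes of 9 matched, H3-3B being in both lists.

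The counts of heat shock, mitosis and matrix genes were lower in the knockdown list, as was the count over all genes. Over all genes the knockdown list had 0.664 times as many genes with a flank summit as the control list. Heat shock and chaperone genes had 7 knockdown and 11 control genes of 21, all 7 being among the control ones. Beside HSPA1B the highest fold was 13.9 in the knockdown list and 14.9 in the control list. Both of those summits lay in the promoter window of the lncRNA SNHG32, so the folds need not belong to the heat shock gene. HSPA1A and HSPA1B are near-identical copies, so the split of reads between the genes themselves is uncertain. HSPA8, the constitutive HSC70, had 5 knockdown summits and 1 control summit. The covered length of its flanks was nonetheless smaller in the knockdown list, 2325 bp against 4861 bp in the control list. HSPB1, HSP90AA1, CCT2 and HSPA1A had control summits alone. Genes of mitosis and G2/M had 6 knockdown and 11 control genes of 24. CDC25B, a phosphatase that activates CDK1, had a fold of 6.73 in the knockdown list and 19.4 in the control list. The knockdown summit lay in the promoter window of the lncRNA LINC01730. ECT2, NUSAP1, MKI67, CDK1, KIF11 and KIF23 had control summits alone, 3 each at MKI67 and CDK1, and UBE2C a knockdown summit alone. Matrix, adhesion and osteoblast genes, a list chosen for the bone origin of U2OS, had 5 knockdown and 12 control genes of 29, all 5 being among the control ones. FLNA, an actin crosslinker, had a fold of 14.8 in the knockdown list and 5.89 in the control list. VIM, TPM1, ACTG1, TLN1, ITGA5, COL1A1 and MYL9 had control summits alone.

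The p53, Notch and YAP/TAZ lists ran level or higher in the knockdown list. The p53 targets had 7 knockdown and 5 control genes of 22, with PHLDA3 at a fold of 9.51 in the knockdown list and 14.4 in the control list. GADD45A, GADD45B, PLK3 and RRM2B had a knockdown summit alone, of folds 4.65 to 5.13, and control peaks covered part of each of those flanks. PLK2 and BBC3 had control summits alone. The Notch pathway and its targets had 5 genes of 20 in each list. HES1, the main transcriptional target of Notch, had 2 knockdown summits with a highest fold of 10.9, against 1 control summit of fold 24.3. Peaks covered 3861 bp of its flanks in the knockdown list and 4494 bp in the control list. DLL4, a Notch ligand, had a fold of 22.7 in the knockdown list and 19.8 in the control list. NRARP and HES4 had a knockdown summit alone with no control peak over the flank, and DTX2 and NOTCH1 control summits alone. YAP/TAZ targets had 5 genes of 16 in each list. AMOTL2 and GADD45A had a knockdown summit alone, and ANKRD1 and ARHGEF17 a control summit alone. Control peaks still covered 1850 bp at AMOTL2 and 4048 bp at GADD45A, against 352 and 1034 bp in the knockdown list.

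Glycolysis genes had 4 knockdown and 5 control genes of 20, led by ENO1 with a fold of 10.5 in the knockdown list and 12.7 in the control list. LDHB and PGAM1 had knockdown summits alone, and PKM, SLC2A1 and LDHA control summits alone. The unfolded protein and ATF4 response had 4 knockdown and 5 control genes of 20. SLC3A2, a subunit of amino acid transporters, had 3 knockdown summits with a highest fold of 20.1 and 1 control summit of fold 15.9. Its covered flank length was 5635 bp in the knockdown list and 5948 bp in the control list. XBP1 had a control summit alone. Interferon-stimulated genes had 1 knockdown gene, IFI44, and 1 control gene, ISG20, of 24.

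Markers of 4 other cell types held flank summits at 3 of 64 genes in the knockdown list (4.69%) and 6 of 64 in the control list (9.38%), close to or below the shares of all genes. Hepatocyte and lymphocyte markers had no flank summit in either list, 0 of 16 genes each. Neuron markers had 1 knockdown and 3 control genes of 16, and keratinocyte markers 2 knockdown and 3 control genes of 16. SLC17A7 was in both lists, and SNAP25 and TUBB3 in the control list alone. IVL had a fold of 9.88 in the knockdown list and 10.8 in the control list, SBSN a knockdown summit alone, and KRT6A and FLG control summits alone. These are positions beside a gene, so a summit there need not belong to the gene's own transcription.

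Peaks on either side of the bounds of the rule are few. Within 100 bp inside the inner bound, 77.8% of 81 knockdown and 38.8% of 116 control peaks had a partner. Within 100 bp outside it 77.4% of 93 knockdown and 41.5% of 130 control peaks did. Within 100 bp inside the outer bound 70.0% of 20 knockdown and 55.3% of 38 control peaks had a partner, and within 100 bp outside it 70.6% of 17 knockdown and 38.9% of 36 control peaks did. The median fold there was 5.97 inside and 8.30 outside in the knockdown list, and 6.21 inside and 6.04 outside in the control list.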

How the data were processed

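Pol II ChIP-seq peaks of U2OS cells were analysed for 1 NKAP knockdown and 1 control library. The input libraries were not used here. The submitters' processing notes name build hg38 with MACS2 2.1.0, Bowtie 1.1.2, Trimmomatic 0.33 and bcl2fastq 2.17. What parameters they ran with, and whether peaks were called against the input libraries, was not given in the sources used here. A fold is therefore over the caller's background, which may be the input or the ChIP library itself. The authors deposited 1 peak list per library, with a score, a fold enrichment (ratio), a −log10 p-value and a −log10 q-value at each summit. The lowest −log10 q-value was 3.02 in the knockdown list and 3.01 in the control list, so regions of weaker Pol II were not listed. They held 27913 knockdown and 38563 control peaks, of which 5.47% and 5.75% lay outside chromosomes 1 to 22 and X and were left out.

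Summits were placed against the RefSeq gene table (GRCh38.p14, 19974 protein-coding genes). Strands came from the RefSeq promoter and microRNA tables, and starts of noncoding genes from the promoter table. A gap between genes was split at its middle. Reads at a summit were recovered from fold and p-value: whole within 0.01 of a read for 100% of knockdown peaks, with pileups scaled by 0.9257, and for 99.997% of control peaks, unscaled. Peaks shared between lists overlapped by at least 1 bp. Percentages have 95% Wilson intervals (scipy 1.17.1), differences Newcombe intervals. Total library depth is unknown from these files. The scripts (Python 3.11.15, pandas 2.3.3, numpy 2.4.6) were tested on simulated data.

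Named peaks were, per list, the 10 of highest fold, the 10 of highest fold without a partner and the 10 of highest fold in noncoding genes. Named genes were the 5 with the most flank summits, the 5 largest deficits and the 5 largest surpluses of covered length, and members of 20 function lists. Named microRNAs were those under flank peaks, chosen after their values were seen. Members and lists were chosen with earlier results of these data known. The 8 alternatives varied the overlap, the q-value, list lengths, the flank bounds, contact with genes and the genes used.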

Additional observations from a re-analysis of the deposited data

How the results depend on the processing

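No paired analysis was possible because each group held 1 ChIP library. Of 65 values recomputed under 8 alternatives, 46 stayed within the counting interval (or within 1.5 times, for counts and the length ratio), 17 moved and 2 reversed. The reversed ones are the knockdown-minus-control difference in flank share, 0.0682 points with equal numbers of strongest peaks and 0.38 points with the strongest 10000. It was -0.854 points over 2000 bp from gene ends and -0.685 points up to 3000 bp, where fewer positions count. With a required overlap of 50% of the shorter peak, 67.1% of knockdown and 31.8% of control flank peaks had a partner. With equal numbers 66.0% of knockdown and 50.6% of control flank peaks did, with the strongest 10000 peaks 70.5% of knockdown and 71.6% of control ones, and with whole peaks clear of genes the control share was 32.1%. Genes with a summit in both lists numbered 536 (over 2000 bp), 574 (up to 3000 bp) and 168 (strongest 10000). Genes in the knockdown list alone numbered 237 (over 2000 bp) and 122 (strongest 10000), and in the control list alone 684 (over 2000 bp), 86 (strongest 10000) and 554 (equal numbers). The knockdown-minus-control differences in downstream share and in share inside noncoding genes stayed within their intervals throughout. The shares themselves moved with the strongest 10000 peaks, to 62.4% downstream in the knockdown list and 60.4% in the control list, and 28.5% in noncoding genes in the knockdown list and 29.2% in the control list. Throughout, the covered-length ratio lay between 0.508 and 0.609.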

Other observations

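Flank peaks were unevenly spread over chromosomes. Per Mb of flank, chromosome 22 held 29.7 knockdown and 52.8 control summits, chromosome 20 held 29.9 knockdown and 43.5 control summits, and chromosome 19 held 25.8 knockdown and 46.1 control summits. Chromosome X held 5.42 knockdown and 11.1 control summits per Mb and chromosome 4 held 7.02 knockdown and 13.6 control summits. On chromosome 13 the counts were 11 knockdown and 12 control summits, so the lists were closest there, on few peaks.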
